A study of Rattus norvegicus with 20 samples.

Results

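The genes described here are the long-chain acyl-CoA synthetases, their short-chain acetate-using relatives and the acyl-CoA thioesterases of rat whole blood. The list held 9 genes, Acsl1, Acsl3, Acsl4, Acsl5, Acsl6, Acss1, Acss2, Acot7 and Acot9, chosen by name with their measured differences between untreated ZDF and lean rats already known, so that comparison is given as a description with no test. On the array 6 of the 9 were named, each by 1 transcript cluster (a set of probes for 1 gene), out of 14557 named genes, and all 6 were among the 8499 genes kept after a filter on low values. They were Acsl1, Acsl3, Acsl4, Acss1, Acss2 and Acot9. Acsl5, Acsl6 and Acot7 were not analysed here.

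Blood of 20 male rats was measured with 1 array per rat, in 4 groups of 5. Lean rats ate standard chow. Obese Zucker diabetic fatty (ZDF) rats, a strain that becomes obese and insulin resistant, ate a stock diet for 6 weeks and were untreated, given rosiglitazone (an agonist of the nuclear receptor PPAR gamma) or given resveratrol (a plant polyphenol). The labels name the treated groups by drug only and the untreated group as obese, and the treated rats are taken here as obese ZDF rats on the stock diet. All 3 obese groups then differ from the lean group in both body type and diet, which cannot be told apart, and the doses are not given in the sources used here. Values are log2 intensities, so a difference of 1 is a 2-fold change, and the level of 1 gene is not set against that of another.

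A fatty acid that enters a cell is first joined to coenzyme A by an acyl-CoA synthetase, and only then can it be oxidised, built into phospholipid and triglyceride, or attached to protein. The long-chain enzymes differ in place and preference. ACSL1 is the main form of fat, heart and liver and an inducible form of activated macrophages, ACSL3 sits on the endoplasmic reticulum and on growing lipid droplets, and ACSL4 prefers arachidonate, the precursor of prostaglandins and leukotrienes. ACSS1, in mitochondria, and ACSS2, in cytosol and nucleus, make acetyl-CoA from acetate. Thioesterases such as the mitochondrial ACOT9 oppose this step by splitting acyl-CoA, which releases the free acid.

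The sequence around the annotated start of the 3 long-chain paralogs is shown as background. The windows are from RefSeq on rat assembly GRCr8, run 5′ to 3′ on the gene's strand from 250 bases before to 50 bases after the annotated start, and have the CCAAT box (CCAAT or its reverse ATTGG) and the GC box (GGGCGG or its reverse CCGCCC) in capitals. Acsl3 lies at chr9:87563351-87563650 on the + strand, Acsl4 at chrX:110803212-110803511 on the - strand and Acsl1 at chr16:52532343-52532642 on the - strand.
Acsl3: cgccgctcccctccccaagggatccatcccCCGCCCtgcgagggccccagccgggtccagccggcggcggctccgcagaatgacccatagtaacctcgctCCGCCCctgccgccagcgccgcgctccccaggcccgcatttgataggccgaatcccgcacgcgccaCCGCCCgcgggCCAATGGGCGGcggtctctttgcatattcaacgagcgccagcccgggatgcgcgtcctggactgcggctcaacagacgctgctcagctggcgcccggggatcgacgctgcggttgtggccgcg
Acsl4: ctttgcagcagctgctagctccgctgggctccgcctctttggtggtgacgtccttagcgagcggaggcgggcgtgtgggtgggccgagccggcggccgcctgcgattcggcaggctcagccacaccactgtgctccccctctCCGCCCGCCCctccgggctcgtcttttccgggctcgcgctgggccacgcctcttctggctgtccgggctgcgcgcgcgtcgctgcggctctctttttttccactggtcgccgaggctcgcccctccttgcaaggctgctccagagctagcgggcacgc
Acsl1: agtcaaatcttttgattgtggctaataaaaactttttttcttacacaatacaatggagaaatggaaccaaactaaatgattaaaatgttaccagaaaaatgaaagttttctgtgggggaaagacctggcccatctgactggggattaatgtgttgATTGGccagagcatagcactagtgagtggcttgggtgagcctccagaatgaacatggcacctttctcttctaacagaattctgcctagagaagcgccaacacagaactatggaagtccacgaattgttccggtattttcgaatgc
The Acsl3 window was 72.7% G or C and held 4 GC boxes and 1 CCAAT box, which directly adjoins the last GC box without sharing a base. The Acsl4 window was 70.7% G or C with 2 GC boxes, which overlap each other in a single stretch, and 0 CCAAT boxes. The Acsl1 window was 40.7% G or C with 0 GC boxes and 1 CCAAT box. Of all 33469 windows of this length, 37.5% held a CCAAT box and 33.1% a GC box on either strand. TATAAA (14.2% of all windows), the PPAR-type direct repeat of AGGTCA with 1 base between the copies (0.0538%), the E-box CACGTG (6.42%) and the sterol element TCACNCCAC (1.12%), each read on both strands, had no match in the windows of these 3 genes, Acss2 or Acot9. A match or its absence describes these letters only. Whether blood uses the annotated start of Acsl1 or of the other genes was not tested, so the windows are not shown to be promoters. Nothing about the levels is read from how they differ. Windows were found for 5 of the 6 genes, not for Acss1.

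Acsl3 was lower in all 15 obese rats than in any lean rat. The 5 lean rats had log2 levels of 3.64, 3.93, 3.86, 3.76 and 3.79. The 5 untreated ZDF rats had 2.97, 2.75, 2.78, 2.81 and 3.07. The rosiglitazone rats had 3.31, 3.04, 3.02, 2.97 and 1.67, and the resveratrol rats 2.31, 2.57, 3.35, 3.32 and 2.89. The lowest lean rat (3.64) thus stood above the highest obese rat (3.35, given resveratrol). Group by group, 5.01% (untreated ZDF), 9.62% (rosiglitazone) and 8.47% (resveratrol) of all genes were lower than lean without overlap. The share of genes that do so in all 3 groups at once was not counted. The spread was narrow in lean (3.8 ± 0.11, SD, n = 5) and untreated ZDF blood (2.87 ± 0.14) and wider in both treated groups (2.8 ± 0.65 with rosiglitazone and 2.89 ± 0.46 with resveratrol). These levels are low for the array: the filter was at 2.64, and 3 of the 20 Acsl3 values fell below it.

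**Figure D1:**
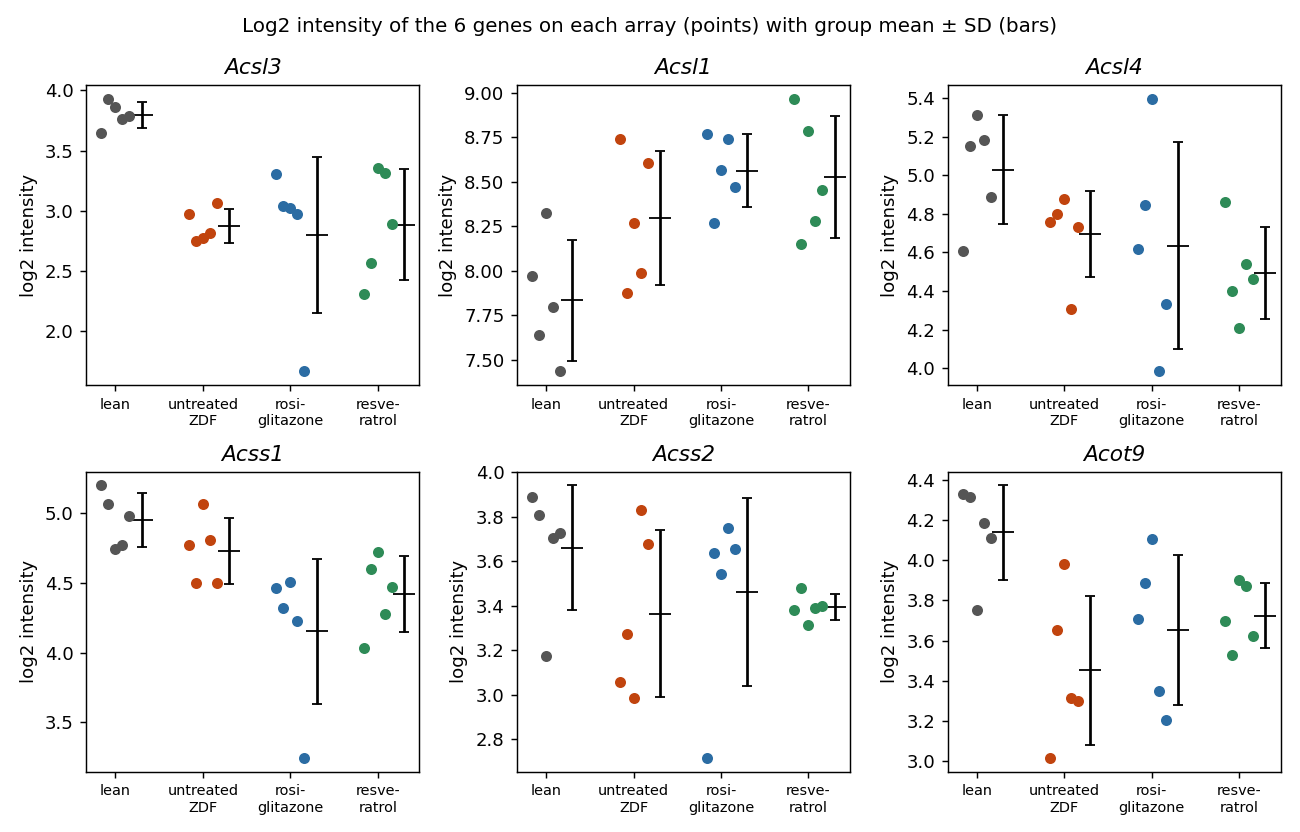
Log2 intensity of the 6 genes in each rat (points), by group, with the group mean and SD (bars, n = 5). Acsl3 is the gene whose 5 lean points (3.64 to 3.93) stand clear of all 15 obese points, while Acsl1 runs the other way with overlap.

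Untreated ZDF blood had 1.89-fold less Acsl3 signal than lean blood, a log2 difference of -0.92 (SE 0.13, 95% interval -1.19 to -0.65). In that comparison 2.95% of the 8499 genes passed an adjusted p of 0.05 and 5.01% were lower with no overlap of the groups. Acsl3 was 1 of 6 members with no overlap, and nothing is read from that count, since the same difference was in view when the list was made. In whole blood, fewer cells of a type and less RNA per cell cannot be told apart.

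The drug-treated rats were other animals, but the lean arrays are the same as in the comparison above. The members were listed with the differences from those lean arrays known. The adjusted p-values of members against lean, here and below, are therefore not independent of that choice. With rosiglitazone, Acsl3 fell by 0.996 against lean (SE 0.23, 1.99-fold, limma adjusted p = 0.00674 over 8499 genes). With resveratrol it fell by 0.91 (SE 0.23, 1.88-fold, limma adjusted p = 0.0188). The background was high in both, with 18.6% of all genes called for rosiglitazone against lean and 13.2% for resveratrol against lean. Rosiglitazone replicate 5, at 1.67, is 1 of 3 arrays that stand apart from the rest. Without it the rosiglitazone difference was -0.71 (limma adjusted p = 0.0189). Resveratrol replicate 1, at 2.31, is another, and without it the resveratrol difference was -0.77 and no longer passed (limma adjusted p = 0.0623). Leaving out all 3 arrays that stand apart, the third being lean replicate 1, gave -0.75 and -0.80, both past the threshold (limma adjusted p = 0.0136 and 0.0219). Unlike the other settings, leaving out these 3 arrays together was not planned beforehand.

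Neither drug moved Acsl3 detectably within the obese rats. The difference from untreated ZDF was -0.07 with rosiglitazone (95% interval -0.56 to 0.41, limma adjusted p = 0.933) and 0.01 with resveratrol (-0.47 to 0.49, limma adjusted p = 0.991). Between the drugs, a comparison that shares no array with ZDF against lean, it was -0.08 (-0.57 to 0.40, limma adjusted p = 0.947). These intervals leave room for a change of about 0.5 in either direction, and the sign of the rosiglitazone difference turned to 0.21 without replicate 5.

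White cell and platelet markers also differed between groups, but not each list in every obese group. The mean level of 6 B cell markers ran from 4.98 to 5.45 in lean rats, 4.29 to 4.80 in untreated ZDF, 3.97 to 4.39 with rosiglitazone and 3.95 to 4.76 with resveratrol, and so was below every lean rat in all 15 obese rats, as Acsl3 was. The mean of 11 T cell markers ran from 5.27 to 5.92 in lean and 4.34 to 5.47 over the obese groups, with overlap. NK and cytotoxic cell markers (5 genes) ran from 4.92 to 5.33 in lean and 4.48 to 4.91 in untreated ZDF. They ran from 3.83 to 4.94 with rosiglitazone and 3.91 to 5.23 with resveratrol, both overlapping with lean. Platelet markers (7 genes) ran from 8.38 to 8.65 in lean, 7.86 to 8.17 in untreated ZDF and 7.59 to 8.15 with rosiglitazone. With resveratrol they ran from 8.10 to 8.48 and overlapped with lean. Monocyte markers (9 genes) ran the opposite way, at 5.45 to 5.73 in lean and 6.00 to 6.37 in untreated ZDF. They ran from 5.62 to 6.66 with rosiglitazone and 4.90 to 6.02 with resveratrol, both overlapping with lean. Neutrophil markers (10 genes kept of 14 named) ran from 5.03 to 5.72 in lean and 5.44 to 6.01 in untreated ZDF, and reached 7.15 in rosiglitazone replicate 5, the rat with the lowest Acsl3. When the myeloid minus the lymphoid marker level of each array was added to the fit, Acsl3 differed from lean by -0.82 (SE 0.28) in untreated ZDF, by -0.43 (SE 0.39, limma adjusted p = 0.678) with rosiglitazone and by -0.53 (SE 0.31, limma adjusted p = 0.376) with resveratrol. Of all 8499 genes, 0 passed against lean in that fit with rosiglitazone and 7 with resveratrol.

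Acsl1, the long-chain form that activated macrophages induce, was higher in obese than in lean blood. Lean rats had levels of 7.97, 7.64, 8.32, 7.80 and 7.44. Untreated ZDF rats had 8.74, 7.88, 8.27, 7.99 and 8.60. Rosiglitazone rats had 8.77, 8.27, 8.57, 8.74 and 8.47 and resveratrol rats 8.97, 8.15, 8.79, 8.28 and 8.46. The groups overlapped. Lean replicate 3 reached 8.32, the other 4 lean rats were at or below 7.97, and 14 of the 15 obese rats were above 7.97. The difference from lean was 0.46 (SE 0.20, 95% interval 0.04 to 0.88) in untreated ZDF, as a description. It rose by 0.73 with rosiglitazone (SE 0.20, 1.66-fold, limma adjusted p = 0.0146) and by 0.69 with resveratrol (SE 0.20, 1.62-fold, limma adjusted p = 0.0275).

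The Acsl1 calls moved with a red cell marker list (9 genes), whose mean ran from 7.15 to 8.11 in lean, 7.41 to 7.99 in untreated ZDF, 7.88 to 8.03 with rosiglitazone and 7.83 to 8.28 with resveratrol. With that list as a covariate the Acsl1 differences were 0.45 (SE 0.16, limma adjusted p = 0.0568) and 0.35 (SE 0.16, limma adjusted p = 0.195), and neither passed. In those fits 1088 of all genes passed with rosiglitazone and 159 with resveratrol, in place of 1585 and 1118. The resveratrol call was also lost in 6 of the 10 fits that left out 1 rat (lean replicates 1, 2, 4 and 5 and resveratrol replicates 1 and 3, highest limma adjusted p = 0.0843), while the rosiglitazone call was kept in 10 of 10. The resveratrol call was lost without the 3 arrays that stand apart too (0.62, limma adjusted p = 0.0967). Both calls were lost with the myeloid minus lymphoid covariate (0.69 and 0.67, limma adjusted p = 0.458 and 0.235). The sizes hardly moved there, in fits where 0 of all 8499 genes passed with rosiglitazone and 7 with resveratrol. Acsl1 in treated rats did not differ detectably from untreated ZDF, at 0.27 for rosiglitazone (95% interval -0.14 to 0.67, but 0.02 with the red cell covariate) and 0.23 for resveratrol (-0.17 to 0.64).

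Acsl4, the form that prefers arachidonate, lay between these patterns, with lower means in obese blood that did not pass the test. Levels were 4.61, 5.15, 5.31, 5.18 and 4.89 in lean rats and 4.76, 4.80, 4.88, 4.31 and 4.73 in untreated ZDF. They were 4.62, 4.85, 5.40, 3.98 and 4.33 with rosiglitazone and 4.86, 4.40, 4.21, 4.54 and 4.46 with resveratrol. Lean replicate 1, at 4.61, sat among the obese rats, and rosiglitazone replicate 3, at 5.40, was above every lean rat. The difference from lean was -0.33 (SE 0.16) in untreated ZDF, -0.39 with rosiglitazone (SE 0.21, limma adjusted p = 0.178) and -0.53 with resveratrol (SE 0.21, limma adjusted p = 0.0804). The rosiglitazone difference moved with single rats, to -0.58 without replicate 3, which passed (limma adjusted p = 0.0336), and to -0.23 without replicate 4 (limma adjusted p = 0.449). After quantile normalization the 3 differences were -0.20, -0.24 and -0.33, and with array weights the resveratrol difference was -0.63 and passed (limma adjusted p = 0.0222).

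Within each rat, the distance between Acsl3 and Acsl1 widened from lean to obese blood. Log2 Acsl3 minus log2 Acsl1 was -4.04 ± 0.36 in lean (range -4.46 to -3.65), -5.42 ± 0.27 in untreated ZDF (-5.77 to -5.13), -5.76 ± 0.61 with rosiglitazone (-6.80 to -5.23) and -5.64 ± 0.62 with resveratrol (-6.66 to -4.96; SD, n = 5 each). The value itself has no meaning across probes, and its change is free only of a constant log2 shift of a whole array. A change in the spread of an array does not cancel. That change from lean was -1.38 (SE 0.20) in untreated ZDF, -1.72 (SE 0.32) with rosiglitazone and -1.61 (SE 0.32) with resveratrol, and all 15 obese rats were below all 5 lean rats. How many other pairs of genes separate the rats in this way was not counted. Against Acsl4 the change from lean was -0.59 (SE 0.15) in untreated ZDF, -0.60 (SE 0.33) with rosiglitazone and -0.38 (SE 0.30) with resveratrol. Without the 3 arrays that stand apart the changes against Acsl4 were -0.52, -0.33 and -0.07, while those against Acsl1 were -1.46, -1.54 and -1.42. Over 4 other settings, that one included, the changes against Acsl1 ran from -1.46 to -1.38, -1.75 to -1.54 and -1.61 to -1.42. Those against Acsl4 ran from -0.68 to -0.52, -0.74 to -0.33 and -0.55 to -0.07. Untreated ZDF rats (-2.10 to -1.5) did not overlap with lean rats (-1.45 to -0.96) on that measure, but both treated groups did. No test was run on these differences, since the pairing was made with results known.

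**Figure D2:**
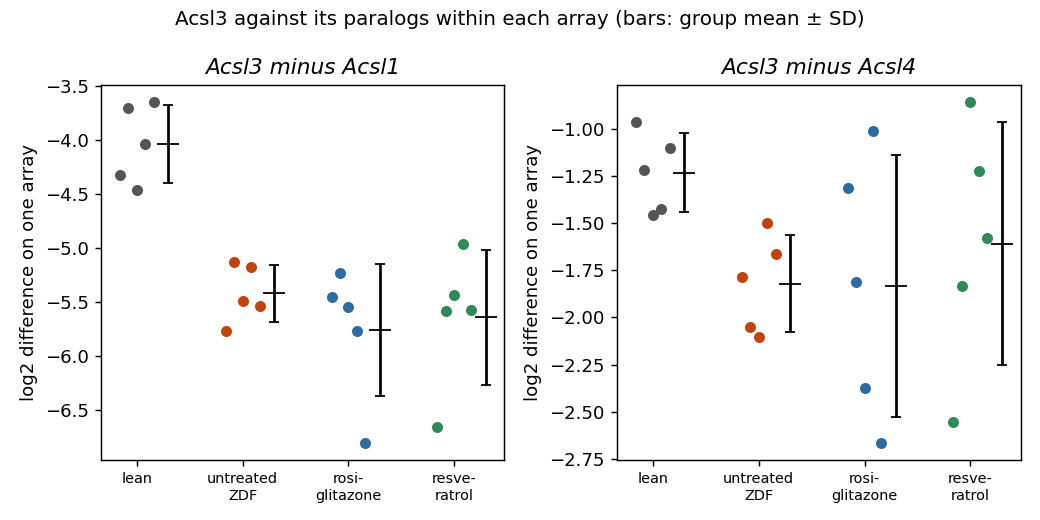
Log2 Acsl3 minus log2 Acsl1 (left) and minus log2 Acsl4 (right) in each rat (points), with the group mean and SD (bars, n = 5). The lean points for Acsl3 minus Acsl1 (-4.46 to -3.65) lie above all obese points, and the treated groups overlap with lean for Acsl3 minus Acsl4.

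Acss1, the mitochondrial enzyme that activates acetate, had its lowest mean with rosiglitazone. Lean rats had 5.20, 5.06, 4.74, 4.77 and 4.98, and untreated ZDF rats 4.77, 4.50, 5.07, 4.81 and 4.50, so these groups overlapped. Rosiglitazone rats had 4.47, 4.32, 4.51, 4.23 and 3.24 and resveratrol rats 4.03, 4.60, 4.72, 4.28 and 4.47, all 10 below the lowest lean rat (4.74). Against lean, Acss1 fell by 0.80 with rosiglitazone (SE 0.20, 1.74-fold, limma adjusted p = 0.00968). With resveratrol the difference was -0.53 (SE 0.20) and missed the threshold (limma adjusted p = 0.0748), which it passed in a fit of the resveratrol and lean arrays alone (limma adjusted p = 0.0466). The resveratrol difference was -0.34 after quantile normalization (limma adjusted p = 0.288) and -0.11 with the myeloid minus lymphoid covariate (limma adjusted p = 0.852). Without rosiglitazone replicate 5, the rat at 3.24, the rosiglitazone difference was -0.57 and still passed (limma adjusted p = 0.0312), as it did without the 3 arrays that stand apart (-0.51, limma adjusted p = 0.0495). With the covariate it was -0.17 (SE 0.31, limma adjusted p = 0.861). Of all 8499 genes, 0 passed against lean in the covariate fit with rosiglitazone and 7 with resveratrol.

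Against untreated ZDF, rosiglitazone gave Acss1 its widest separation among the 6 genes, -0.58 (SE 0.20, 95% interval -0.99 to -0.16), with all 5 rosiglitazone rats at or below 4.51 and 3 of 5 untreated rats above it. It did not pass (unadjusted p = 0.00811, limma adjusted p = 0.260), and without rosiglitazone replicate 5 it was -0.35 (limma adjusted p = 0.477). Resveratrol differed from untreated ZDF by -0.31 (-0.72 to 0.10, limma adjusted p = 0.608), and rosiglitazone from resveratrol by -0.27 (-0.68 to 0.15, limma adjusted p = 0.728), a difference of -0.0402 without rosiglitazone replicate 5.

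Acss2, which makes acetyl-CoA in cytosol and nucleus and is a sterol-regulated gene, did not pass in any tested comparison. Levels ran from 3.18 to 3.89 in lean (median rat 3.73), 2.98 to 3.83 in untreated ZDF, 2.72 to 3.75 with rosiglitazone and 3.31 to 3.48 with resveratrol, with overlap everywhere. The resveratrol rats were the tightest group (3.39 ± 0.06, SD, n = 5, against 0.28 to 0.42 for the SD of the other 3). The difference from lean was -0.30 (SE 0.19) in untreated ZDF, -0.20 with rosiglitazone (limma adjusted p = 0.489) and -0.27 with resveratrol (limma adjusted p = 0.355). The myeloid minus lymphoid covariate turned the first 2 of these to 0.20 and 0.0789 and left -0.08 for the third, and the red cell covariate left -0.14 for the third.

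Acot9, the thioesterase, had lower means in obese blood, with the widest separation in untreated rats. Lean rats had 4.33, 4.31, 3.75, 4.19 and 4.11 and untreated ZDF rats 3.01, 3.65, 3.98, 3.31 and 3.30. Rosiglitazone rats had 3.71, 3.89, 4.11, 3.35 and 3.20, and resveratrol rats 3.70, 3.53, 3.90, 3.87 and 3.62. Lean replicate 3, at 3.75, was the only lean rat below 4.11, and each obese group had rats above it. The difference from lean was -0.69 (SE 0.18, 95% interval -1.07 to -0.30) in untreated ZDF, as a description. It was -0.49 with rosiglitazone (limma adjusted p = 0.0683) and -0.41 with resveratrol (limma adjusted p = 0.131), and neither passed. The first did pass without lean replicate 3 (limma adjusted p = 0.0405), without rosiglitazone replicate 3 (limma adjusted p = 0.0296) or with each array centred on its median (limma adjusted p = 0.0392).

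Against lean, then, 1 of the 6 genes was called higher and 2 lower with rosiglitazone, where 4.17% of all genes were called higher and 14.5% lower. With resveratrol 1 was called higher and 1 lower, against 2.73% and 10.4% of all genes. Groups did not overlap for 2 of the 6 genes (Acsl3 and Acss1, both lower) in each of these comparisons, against 9.62% and 8.47% of all genes lower without overlap. The median difference of the 6 genes was -0.44 and -0.47, beside -0.09 for all genes in both. Nothing is read from these counts and medians, since the genes were listed with their differences from the same lean arrays known.

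No member passed in the 3 comparisons among obese rats. The 14 genes called for rosiglitazone against untreated ZDF were 0.165% of those tested, and the 4 called for rosiglitazone against resveratrol 0.0471%. For resveratrol against untreated ZDF the share was 0%, with 0 genes called by limma and 873 at an unadjusted p under 0.05. An unadjusted p under 0.05 was reached by 1 of the 6 genes (Acss1) for rosiglitazone against untreated ZDF, beside 12.1% of all genes, and by 0 in the other two comparisons, beside 10.3% for resveratrol against untreated ZDF and 9% between the drugs. For the difference between the drugs, the 95% intervals lay between -0.68 and 0.57 for all 6 genes.

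**Figure D3:**
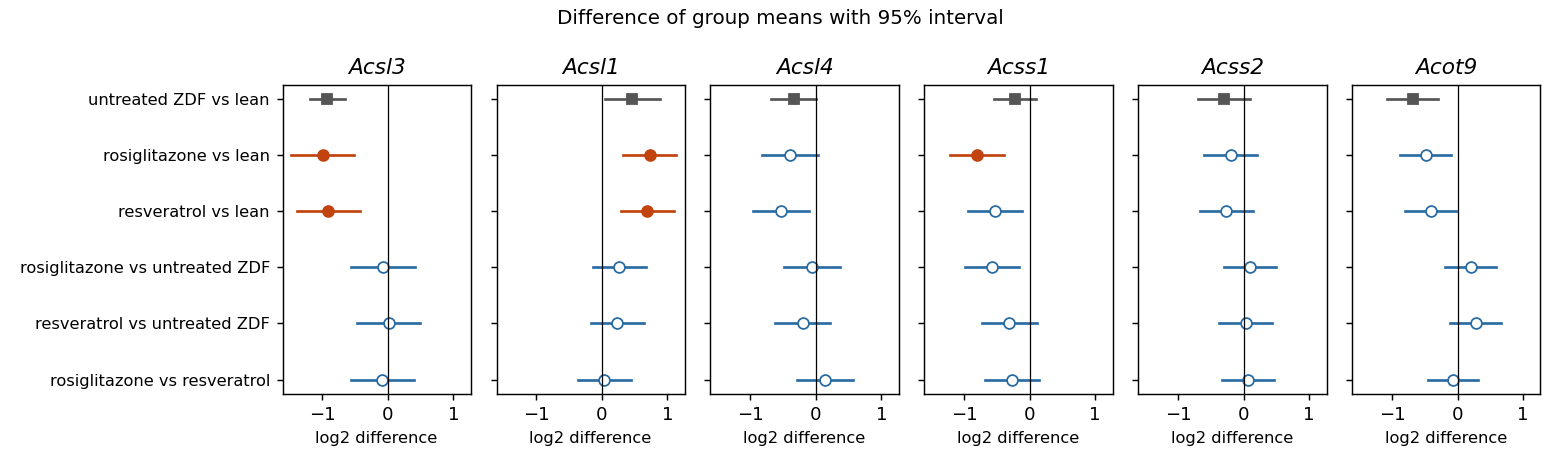
Log2 difference of each of the 6 genes in the 6 comparisons, with its 95% interval. Filled red points passed an adjusted p of 0.05, open blue points did not, and grey squares (untreated ZDF against lean) are descriptions with no test. The 5 red points are Acsl3 and Acsl1 against lean under both drugs and Acss1 against lean under rosiglitazone.

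Around these enzymes, 10 lists of lipid genes were described by role, with 122 genes named on the array and 87 kept. The lists were chosen with earlier results of these data known, so their adjusted p-values are not independent of that choice. Against lean, 5 of the 87 rose and 7 fell with rosiglitazone, 13.8% against 18.6% of all genes. The 5 include Creb3l3, which was kept only through the obese groups, as described below. With resveratrol 3 rose and 6 fell, 10.3% against 13.2%. In each of the 4 other comparisons 0 of the 87 passed in limma. An unadjusted p under 0.05 was reached by 22 of them in untreated ZDF against lean, beside 24.1% of all genes, by 17 in rosiglitazone against untreated ZDF (12.1% of all genes), by 13 in resveratrol against untreated ZDF (10.3%) and by 10 between the drugs (9%).

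Among enzymes that use the products of the synthetases, Dgat2, which makes triglyceride from diacylglycerol and acyl-CoA, rose by 1.37 with rosiglitazone (SE 0.28, limma adjusted p = 0.00346), from 3.97 ± 0.46 in lean to 5.34 ± 0.61 (SD, n = 5) with no overlap. It rose by 0.95 with resveratrol (SE 0.28, limma adjusted p = 0.0328), where the groups overlapped. Agpat5, an acyltransferase of phosphatidic acid synthesis, fell by 1.09 with rosiglitazone (SE 0.20, limma adjusted p = 0.00195), from 6.62 ± 0.36 to 5.53 ± 0.30 with no overlap. Lpcat1, which remodels phosphatidylcholine, fell by 0.51 (SE 0.17, limma adjusted p = 0.0333). The glycerolipid list thus had 1 riser and 2 fallers among 14 kept genes with rosiglitazone and 1 riser with resveratrol.

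The arachidonate list, downstream of the substrate that ACSL4 prefers, had 2 risers and 3 fallers among 10 kept genes with rosiglitazone. Alox5ap, the partner protein of 5-lipoxygenase in leukotriene synthesis, rose by 1.04 (SE 0.21, limma adjusted p = 0.00319) and Alox15, a lipoxygenase, by 0.53 (SE 0.13, limma adjusted p = 0.00695), both with no overlap. Ptgs1, the constitutive cyclooxygenase of platelets, fell by 0.60 (SE 0.15, limma adjusted p = 0.00952) with no overlap, and the other two fallers were Alox12 and Lta4h. With resveratrol the 2 risers were again Alox15, by 0.40 (SE 0.13, limma adjusted p = 0.0371), and Alox5ap, by 0.65 (SE 0.21, limma adjusted p = 0.0420), and no gene of the list passed as lower. Platelet markers ran from 7.59 to 8.15 with rosiglitazone, below every lean rat (8.38 to 8.65), and neutrophil markers from 5.34 to 7.15. The part of either cell type in these results was not tested. With the myeloid minus lymphoid covariate, 0 of the 87 lipid genes passed against lean under either drug, in fits where 0 of all 8499 genes passed with rosiglitazone and 7 with resveratrol. Without the 3 arrays that stand apart, 5 and 3 of the 87 passed in place of 12 and 9.

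In fatty acid oxidation, Acadm, the medium-chain acyl-CoA dehydrogenase, fell by 0.72 with rosiglitazone (SE 0.19, limma adjusted p = 0.0121) and by 0.89 with resveratrol (SE 0.19, limma adjusted p = 0.00868). It was the only call among 18 kept mitochondrial genes with rosiglitazone. With resveratrol Eci2, an enoyl-CoA isomerase, fell by 0.73 and Etfb, an electron carrier subunit, by 0.64 (limma adjusted p = 0.0179 and 0.0259). Of 7 kept peroxisomal genes, the thiolase Acaa1a rose by 0.52 with rosiglitazone (limma adjusted p = 0.0330), and the transporter Abcd3 and the acyltransferase Crot fell by 0.85 and 0.67 with resveratrol (limma adjusted p = 0.0159 and 0.0441).

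The closest relatives of the 6 genes gave few calls. Of 3 kept other synthetases, 0 passed in limma against lean under either drug, nor at an unadjusted p under 0.05. Of 6 kept other thioesterases, Ppt1, the lysosomal palmitoyl-protein thioesterase, fell by 0.62 with resveratrol (SE 0.17, limma adjusted p = 0.0264). The fatty acid elongase Elovl5 fell by 0.48 with rosiglitazone (limma adjusted p = 0.0124), and Creb3l3, a lipid-regulating transcription factor best known in liver, rose by 0.74 (limma adjusted p = 0.00610). All lean rats lay below the filter of 2.64 for Creb3l3 (2.34 to 2.52). It was kept only through the obese groups, so nothing more is read from its call. The uptake list (6 kept genes) and the lipid droplet list (7 kept genes) had 0 calls in these comparisons in limma, with 1 to 3 genes each at an unadjusted p under 0.05, which 34.2% of all genes reached with rosiglitazone and 31.6% with resveratrol.

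**Figure D4:**
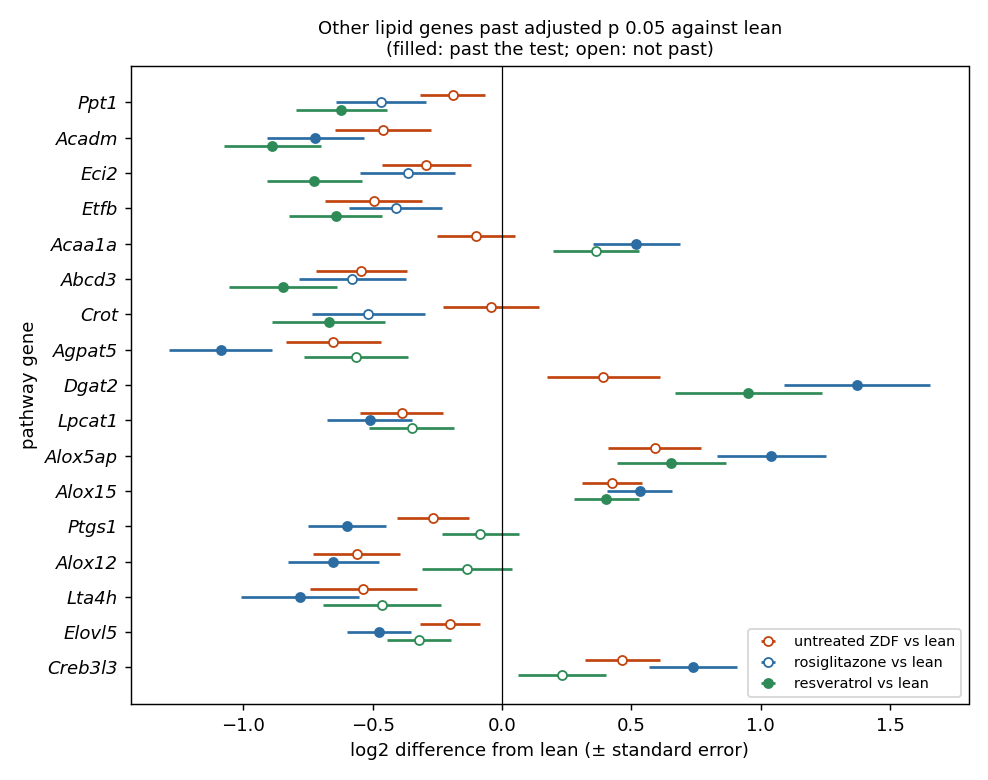
Log2 difference from lean (± SE) of the named lipid genes in untreated ZDF (orange), rosiglitazone (blue) and resveratrol (green) rats, with filled points for those past an adjusted p of 0.05. Dgat2 with rosiglitazone (1.37) and Agpat5 with rosiglitazone (-1.09) lie farthest to the right and left among the called points.

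The genes whose level ran most like that of Acsl3 over the 20 arrays were Pdcd10 (Pearson r = 0.90), Prpf6 (0.89), Tra2b (0.89), Bmi1 (0.87) and Xpo1 (0.87). Pdcd10 is the CCM3 protein of cerebral cavernous malformation, Prpf6 a spliceosome component, Tra2b a splicing factor, Bmi1 a Polycomb protein and Xpo1 the main nuclear exporter. After the group means were removed, r was 0.86, 0.79, 0.78, 0.76 and 0.78. Those values lean on the arrays that stand apart. Without these 3 arrays r was 0.80, 0.79, 0.81, 0.79 and 0.74 over the other 17, and 0.59, 0.49, 0.35, 0.47 and 0.38 with group means removed. Group means of Tra2b, for example, were 5.13 in lean and 4.45, 4.34 and 4.25 in untreated, rosiglitazone and resveratrol rats. Of the other members, Acss1 had an r with Acsl3 of 0.74 (0.69 with group means removed), which rests on rosiglitazone replicate 5, the lowest rat for both: without it r was 0.55 and 0.23, and without the 3 arrays 0.37 and -0.06. Over all 20 arrays the others followed with Acot9 (0.64 and 0.36), Acsl4 (0.43 and 0.11) and Acss2 (0.10 and -0.27). Acsl1 ran against it (-0.45), but not once group means were removed (0.11, and 0.48 without the 3 arrays). These are descriptions over 20 arrays that share groups and any shift of a whole array.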

How the data were processed

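The authors deposited log2 intensities from robust multi-array averaging for 36685 transcript clusters on 20 Affymetrix Rat Gene 2.1 ST arrays (100 ng RNA, whole blood, 1 rat each). A version was not given in the sources used here. Clusters with 1 symbol (14824) were named from the platform annotation, 14670 of them by Entrez identifier in RefSeq (GRCr8), and 829 with several symbols and 21032 unnamed clusters were left out. Genes with a 20-array mean below 2.64, the median of all clusters, were removed, and the brightest cluster per gene was kept (8499 genes). R 4.3.3 and limma 3.58.1 (lmFit, eBayes) were used with Benjamini-Hochberg adjustment over all kept genes, on 10 arrays for untreated ZDF against lean and otherwise on 20 with 4 group means, all two-sided. Python 3.11.15, pandas 2.3.3 and matplotlib 3.10.9 served for sequences and plots. Scripts were tested on simulated data. Members and lists were chosen with earlier results of these data known. Genes named were the members, up to 3 smallest-p calls per list and comparison, and the 5 genes most correlated with Acsl3. Alox12 and Lta4h were named after their values were seen. Array number limits precision. Correlations between arrays ran from 0.883 to 0.976. Rosiglitazone replicate 5 and resveratrol replicate 1 had a median of 0.932 with their own groups (0.950 or more elsewhere), and lean replicate 1 had a skeletal muscle marker mean of 5.92 (at most 3.50 elsewhere).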

Additional observations from a re-analysis of the deposited data

Results flagged for a closer look

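In 5 of the 24 sets of 5 rats (6 genes in 4 groups), 1 rat lay far from the others, by a gap over 0.71 of the set's range. Chance alone does this in about 1 set in 20. Rosiglitazone replicate 5 did so for Acsl3, at 1.67 (next rat 2.97), and for Acss1, at 3.24 (next rat 4.23), and the same rat had the highest neutrophil marker mean, 7.15. The part of that array in these results was measured by leaving it out: Acsl3 and Acss1 still passed against lean, at -0.71 and -0.57. The untreated ZDF replicate 4 had an Acsl4 level of 4.31 (next rat 4.73). Lean replicate 3 had an Acss2 level of 3.18 (next rat 3.71), and rosiglitazone replicate 1 had 2.72 (next rat 3.54).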

How the results depend on the processing

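Acsl3 was lower in untreated ZDF than in lean blood in every setting that could be computed, by -0.99 to -0.82, and by -0.97 to -0.89 with each rat left out. The filter at the 75th percentile removes Acsl3 and was not run for it. With rosiglitazone against lean, leaving out each rat gave -1.12 to -0.71, and the call was lost only with the myeloid minus lymphoid covariate (-0.43). With resveratrol, leaving out each rat gave -1.03 to -0.77, and the call was lost without resveratrol replicate 1, with the red cell covariate (-0.89, limma adjusted p = 0.0712) and with the myeloid minus lymphoid covariate (-0.53). That covariate is made of genes that themselves differ between the groups.

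Differences near 0 changed sign. For Acsl3, rosiglitazone against untreated ZDF was 0.0952 with array weights, 0.139 with the myeloid minus lymphoid covariate and 0.21 without the 3 arrays (-0.20 to 0.21 with each rat left out), and rosiglitazone against resveratrol 0.0214, 0.10 and 0.0539 (-0.23 to 0.20). Resveratrol against untreated ZDF ran from -0.11 to 0.16 with each rat left out. Acsl4, rosiglitazone against untreated ZDF, was 0.0449 with array weights and 0.0175 without the 3 arrays (-0.25 to 0.10 with each rat left out). Acot9 between the drugs was 0.0404 and 0.0311 (-0.19 to 0.0383). Acsl1, resveratrol against untreated ZDF, was -0.0915 with the red cell covariate, and with the myeloid minus lymphoid covariate Acss2 was 0.0789 for rosiglitazone against lean and 0.20 for untreated ZDF against lean, and Acss1 0.06 for untreated ZDF against lean. Between the drugs with each rat left out, Acsl1 ran from -0.0597 to 0.14, Acsl4 from -0.0492 to 0.30 and Acss2 from -0.0049 to 0.25, and Acss2, resveratrol against untreated ZDF, from -0.0661 to 0.15.

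Counts over all genes moved more. Each change of the filter also changes how many genes are tested, and normalization can do so, so these counts do not share a total. For untreated ZDF against lean (251) they were 132 with no filter, 490 with the filter at the 75th percentile, 135 after quantile normalization, 455 after centring, 23 in the fit of all 20 arrays, 504 with array weights, 512 with a robust prior that follows intensity, 75 with the replicate block, 0 with the myeloid minus lymphoid covariate, 79 without the 3 arrays and 46 to 459 with each rat left out. For rosiglitazone against untreated ZDF (14) they were 25 with that prior, 4 with the red cell covariate, 1 with the myeloid minus lymphoid covariate and 3 to 16 with each rat left out. For resveratrol against untreated ZDF (0) they were 0 to 1. Between the drugs (4) they were 7 with the stricter filter, 7 after quantile normalization, 13 with that prior, 10 with array weights and 3 to 11. For rosiglitazone against lean (1585) they were 1012 after quantile normalization, 0 with the myeloid minus lymphoid covariate, 631 without the 3 arrays and 785 to 1648. For resveratrol against lean (1118) they were 415, 159 with the red cell covariate, 7, 245 and 317 to 1363. Higher and lower calls split 68 to 183, 354 to 1231 and 232 to 886 against lean for untreated, rosiglitazone and resveratrol, 71 to 64, 363 to 649 and 176 to 239 after quantile normalization, and 52 to 403, 198 to 1708 and 132 to 1213 after centring. None of the 87 kept lipid genes passed for untreated ZDF against lean. Of the lipid genes kept in each setting, 5 did with the filter at the 75th percentile, 6 with that prior and 3 with array weights. After quantile normalization, after centring and with the red cell covariate, 1 passed in each. For rosiglitazone against lean (12) 19 passed with array weights, and for resveratrol against lean (9) 6 with no filter and 1 with the red cell covariate. The cause was not tested. Replicate numbers do not pair the rats (at most 2 of 5 same-numbered pairs over 0.1 in any comparison), and the replicate block changed no call of a member: Acsl3 differed from lean by -0.996 (limma adjusted p = 0.00921) and -0.91 (0.0235) under the drugs with it.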

Other observations

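Relatives of the 6 genes that lay below the filter are given here as values only. Of 16 other thioesterases named on the array, 10 had a 20-array mean log2 level between 1.13 and 2.6, among them Acot1 (1.13), a cytosolic long-chain acyl-CoA thioesterase, and Baat (1.34), the liver enzyme that joins bile acids to amino acids. Of 8 other synthetases 5 lay between 1.48 and 2.48, among them the medium-chain enzyme Acsm1 (1.48) and the Bubblegum enzyme Acsbg1 (2.01). Of 13 uptake and binding genes 7 lay between 1.48 and 2.59, among them the binding proteins of liver, Fabp1 (1.48), and fat, Fabp4 (2.24). A level below the filter does not show that a transcript is absent, since probes differ in brightness.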
